A study of Mus musculus with 6 samples.

Results

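The sideroflexins are a family of 5 nuclear genes, Sfxn1 to Sfxn5, whose products sit in the inner mitochondrial membrane. They were taken from the 24391 genes of the table, and all 5 were expressed highly enough to be among the 13366 genes tested. The rule that chose them was their symbol. The cells were Neuro2a, a line from a mouse neuroblastoma, kept with 10% fetal bovine serum, and their poly(A) RNA was sequenced. The control group held 3 libraries from cells given vehicle, and the treated group 3 libraries from cells given 5 mM D-serine, the mirror image of the common amino acid L-serine. In both groups the growth medium had been exchanged for a medium written D-MEM(-SG), a code that the labels do not explain, and RNA was taken 18 h later. All libraries thus came from a single tumor line. The labels number the samples of a group but do not say that they came from separate cultures, so p-values measure only the spread between these samples.

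Serine enters mitochondria to be split by serine hydroxymethyltransferase into glycine and a carbon unit carried on folate, which is used for nucleotide synthesis and for the start of mitochondrial translation. SFXN1 is the carrier known for bringing serine across the inner membrane, and SFXN3 can do the same work. SFXN2 has been linked to iron and heme balance, SFXN4 to the assembly of respiratory complex I and to iron-sulfur clusters, and SFXN5 to citrate transport. D-serine, which shares the atoms of the carried amino acid in mirrored arrangement, is best known as a co-agonist of NMDA receptors.

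Markers of the labelled cell type were present. Of 20 genes listed as marks of sympathetic neuroblastoma, 16 had a mean of at least 1 CPM (the count scaled to library size), among them Hand2 at 249 CPM and Mycn at 149 CPM, while the neurofilament gene Nefl lay at 0.0091 CPM. The summed level of these 20 was 2336 to 2442 CPM in control and 2475 to 2613 CPM with D-serine, and its part in the results was not tested. The summed levels of fibroblast markers (4.62 to 7.10 CPM over all libraries), endothelial markers (3.595 to 4.71 CPM) and immune markers (1.02 to 2.20 CPM) were low, and Col3a1, Lum, Twist1, Kdr and Cd3e had no count, nor did the glial gene Aqp4. Markers of glia summed to 14.5 to 16.2 CPM, mostly Mbp. Total counts per library lay between 32518483 and 40024265. D-serine replicate 1 stood apart from its fellows, with a chi-square statistic of 13.9 and 17.7 per degree of freedom against them, where the other 4 pairs within groups gave 3.88 to 6.54. It also counted long genes lower, with a slope on log2 exonic length of -0.072 in log2 CPM, against -0.0040 to 0.036 in the other libraries. Several results that bear on this library are given with and without it.

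The promoters of 3 members are shown because they bracket the family: Sfxn1 had the highest level, Sfxn2 the lowest, and Sfxn4 was the member whose groups did not overlap. Each is the 250 bases before the transcription start that RefSeq gives in the GRCm38.p6 build, 5′ to 3′ on the strand of the gene, with the letters of matched motifs in capitals. The window of Sfxn1 is chr13:54071595-54071844 (plus strand), that of Sfxn2 is chr19:46573115-46573364 (plus strand) and that of Sfxn4 is chr19:60861429-60861678 (minus strand).
Sfxn1: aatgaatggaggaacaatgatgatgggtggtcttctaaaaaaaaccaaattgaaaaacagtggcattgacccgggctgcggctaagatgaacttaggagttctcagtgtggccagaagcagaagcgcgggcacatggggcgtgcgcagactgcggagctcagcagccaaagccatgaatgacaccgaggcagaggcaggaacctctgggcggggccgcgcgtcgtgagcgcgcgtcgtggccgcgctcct
Sfxn2: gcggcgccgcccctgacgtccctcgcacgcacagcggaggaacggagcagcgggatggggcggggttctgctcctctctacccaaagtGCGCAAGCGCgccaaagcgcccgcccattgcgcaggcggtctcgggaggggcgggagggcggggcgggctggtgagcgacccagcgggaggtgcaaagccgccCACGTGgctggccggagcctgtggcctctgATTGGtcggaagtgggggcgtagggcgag
Sfxn4: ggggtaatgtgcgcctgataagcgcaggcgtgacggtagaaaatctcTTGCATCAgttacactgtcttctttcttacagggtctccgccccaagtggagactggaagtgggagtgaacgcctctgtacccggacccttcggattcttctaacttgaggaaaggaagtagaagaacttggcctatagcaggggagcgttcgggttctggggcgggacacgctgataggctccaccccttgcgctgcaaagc

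All 5 members had a window in the RefSeq promoter table, and 4 short motifs were searched on both strands. TGATGNAA, the core of the element bound by ATF4 with a C/EBP partner, was found in 3.45% of all 32851 windows, and among the sideroflexins in Sfxn4 alone, starting 203 bases before the start on the opposite strand. The element of nuclear respiratory factor NRF1 was in 3.74% of windows and matched Sfxn2 162 bases before the start, as GCGCAAGCGC. CACGTG, the E-box bound by MYC and related factors, was in 6.02% of windows and matched Sfxn2 at 59 bases. CCAAT was in 33.8% of windows and matched Sfxn2 at 29 bases and Sfxn5 at 71 bases. No match overlapped another, and the windows of Sfxn1 and Sfxn3 held none of the 4 motifs. The Sfxn2 window was the richest in G and C, at 73.2%, with 29 CpG pairs, against 58.0% and 19 in Sfxn1 and 55.2% and 13 in Sfxn4, where the median window held 52.4% and 6 pairs.

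Sfxn1 was by far the most highly expressed sideroflexin, and the order of the members was identical in all 6 libraries. Levels between genes were compared as RPKM, which is CPM divided by the deposited exonic length in kilobases. Sfxn1 stood at 31.4 ± 1.78 RPKM in control and 33.4 ± 1.17 RPKM with D-serine (SD, n = 3 each). Sfxn3, its nearest relative in function, followed at 2.83 ± 0.148 and 2.82 ± 0.284 RPKM. The level of Sfxn1 was 10.6 to 13.1 times that of Sfxn3 over the libraries. Sfxn4 lay at 1.26 ± 0.023 RPKM in control and 1.53 ± 0.103 RPKM with D-serine, and Sfxn5 at 0.928 ± 0.124 and 0.996 ± 0.126 RPKM. Sfxn2 was the lowest, at 0.553 ± 0.131 and 0.511 ± 0.093 RPKM.

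The ranges of neighbours in this order did not overlap over the 6 libraries. The narrowest step was from Sfxn4 to Sfxn5, where the ratio of levels lay between 1.16 and 1.79. The step from Sfxn5 to Sfxn2 was 1.32 to 2.33 times, and Sfxn1 exceeded Sfxn2 by 46.8 to 80.0 times. Among all tested genes, Sfxn1 was at percentile 80.0 by RPKM and Sfxn3 at 27.1, and Sfxn4, Sfxn5 and Sfxn2 were at 19.5, 16.2 and 11.5. The plot of levels per length shows these steps.

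**Figure D1:**
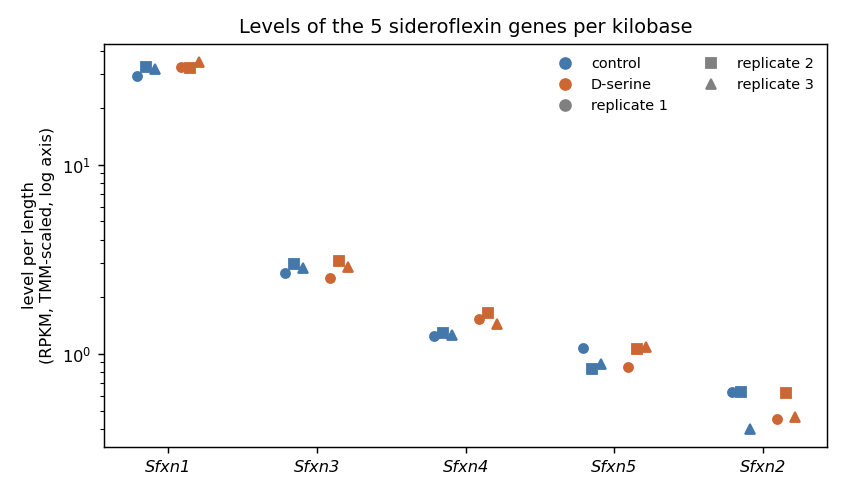
Levels of the 5 sideroflexin genes in RPKM on a log axis, from the highest to the lowest, with 1 point for each of 3 control (blue) and 3 D-serine (orange) libraries and the replicate number as the shape. Sfxn1 lies near 32.4 RPKM on average and the other members between 0.532 and 2.83 RPKM, in the same order in every library.

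Of the summed level of the family, Sfxn1 supplied 84.9% ± 0.874 in control and 85.1% ± 1.30 with D-serine (SD over 3 libraries each; p = 0.8 by a two-sided exact permutation test). The share of Sfxn4 was 3.41% ± 0.108 and 3.90% ± 0.346 (exact two-sided permutation p = 0.2). After Benjamini-Hochberg adjustment over the 5 shares every p was 1, and 0.1 is the smallest raw p that 3 libraries against 3 allow. The sum itself was 37.0 ± 1.78 RPKM in control and 39.3 ± 1.2 RPKM with D-serine, with libraries between 34.99 and 38.4 in control and between 38.2 and 40.6 with D-serine. The ranges overlapped, since the lowest D-serine library lay below the highest control library.

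No sideroflexin gene passed the threshold between D-serine and control. In edgeR's quasi-likelihood test, with Benjamini-Hochberg adjustment over all 13366 genes and a threshold of 0.05, 0 of 5 were called, where 9.74% of all tested genes were. The count was also 0 in DESeq2 and in limma-voom, and 0 members had an unadjusted p under 0.05 in edgeR, a level reached by 28.2% of all genes. The estimates were above 0 for Sfxn1, Sfxn4 and Sfxn5 and below 0 for Sfxn2 and Sfxn3. They are given below by role, with the interval of each difference, because a missed threshold does not show that a gene was equal in the groups.

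Sfxn1 (chromosome 13, 54167214 to 54203714, plus strand, 11 exon blocks) encodes the serine carrier. Its expression in control replicates 1 to 3 was 82.5, 91.9 and 90.3 CPM, and in D-serine replicates 1 to 3 it was 92.4, 91.5 and 97.6 CPM. Control replicate 1 was the low library and D-serine replicate 3 the high one, and the groups overlapped, since control replicate 2 exceeded D-serine replicate 2. The log2 fold change was 0.089 (SE 0.053, edgeR adjusted p = 0.292), with a 95% interval from -0.025 to 0.20, or from 0.983-fold to 1.15-fold. This was the most precise estimate of the family, from 2663 to 3933 counts per library. Without control replicate 1 it was 0.045, without D-serine replicate 3 it was 0.059 and without D-serine replicate 1 it was 0.10.

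Sfxn3 (chromosome 19, 45122066 to 45130873, plus strand, 11 exon blocks) encodes the other serine carrier. Its control libraries gave 7.96, 8.84 and 8.41 CPM and its D-serine libraries 7.47, 9.14 and 8.49 CPM. The lowest and the highest library both belonged to D-serine, and the control libraries lay between them. The log2 fold change was -0.0088 (SE 0.107, edgeR adjusted p = 0.971), with a 95% interval from -0.24 to 0.22, or 0.847-fold to 1.17-fold. Without D-serine replicate 1, the lowest library, the estimate was 0.066 (adjusted p = 0.758). Without D-serine replicate 2, the highest, it was -0.075, and it ran from -0.044 to 0.030 when any 1 of the other 4 libraries was left out. Under upper quartile scaling and library totals it was 0.020 in each.

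Sfxn4 (chromosome 19, 60913180 to 60937333, minus strand, 14 exon blocks) had the largest estimate of the family. The SFXN4 protein takes part in building complex I. Its control libraries gave 3.38, 3.50 and 3.44 CPM and its D-serine libraries 4.16, 4.46 and 3.90 CPM. Every D-serine library was above every control library, a pattern shown in this direction by 16.2% of all tested genes and in either direction by 32.9%. The log2 fold change was 0.28 (SE 0.142, edgeR adjusted p = 0.220, unadjusted p = 0.0727). The exact two-sided permutation p over the libraries was 0.1, the smallest that 3 against 3 allow. The 95% interval ran from -0.029 to 0.58, or from 0.980-fold to 1.496-fold. Counts were 109 to 164 per library, for which counting error alone gives a coefficient of variation of 8.40%. The control libraries varied by 1.84% and the D-serine libraries by 6.76%, both less than that. Over 16 other settings the estimate lay between 0.23 and 0.32, and the adjusted p between 0.178 and 0.398.

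Sfxn5 (chromosome 6, 85163045 to 85283416, minus strand, 14 exon blocks) spread over the longest stretch of genome, 120372 bases. It gave 3.90, 3.05 and 3.22 CPM in control and 3.11, 3.86 and 3.95 CPM with D-serine. Both groups held high and low libraries: control replicate 1 lay between D-serine replicates 2 and 3, and D-serine replicate 1 between control replicates 2 and 3. The log2 fold change was 0.11 (SE 0.167, edgeR adjusted p = 0.723), with a 95% interval from -0.25 to 0.46, or 0.839-fold to 1.38-fold. Leaving out control replicate 1 gave an estimate of 0.22, and leaving out D-serine replicate 1 gave 0.21. It was 0.034 when control replicate 2 was left out, 0.041 for D-serine replicate 3, 0.062 for D-serine replicate 2 and 0.072 for control replicate 3, and it was called in none of these fits.

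Sfxn2 (chromosome 19, 46647855 to 46671390, plus strand, 12 exon blocks), the member linked to iron and heme, rested on 48 to 75 counts per library. It gave 2.01, 2.02 and 1.29 CPM in control and 1.45, 1.99 and 1.49 CPM with D-serine. The lowest and the highest library both belonged to control, and the D-serine libraries lay between them. The log2 fold change was -0.11 (SE 0.254, edgeR adjusted p = 0.816), with a 95% interval from -0.66 to 0.44, or from 0.634-fold to 1.35-fold. Leaving out control replicate 3 gave an estimate of -0.30, and leaving out D-serine replicate 2 gave -0.27. It lay between -0.045 and -0.0012 when any 1 of the other 4 libraries was left out. The control libraries varied by 23.7% and the D-serine libraries by 18.1%, where counting error alone gives 12.6%.

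**Figure D2:**
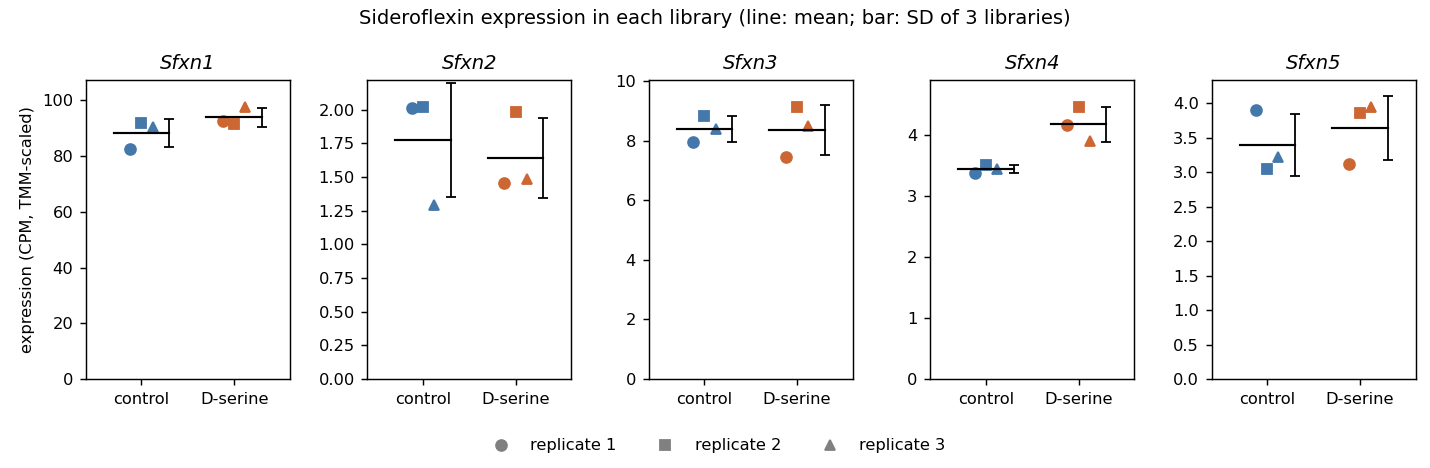
Expression of each sideroflexin gene in CPM in the 3 control (blue) and 3 D-serine (orange) libraries, each panel with its own axis from 0, lines at the group means, bars for the SD and the replicate number as the shape. The groups do not overlap for Sfxn4 (3.38 to 3.50 CPM against 3.90 to 4.46 CPM) and overlap for the other 4 genes.

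**Figure D3:**
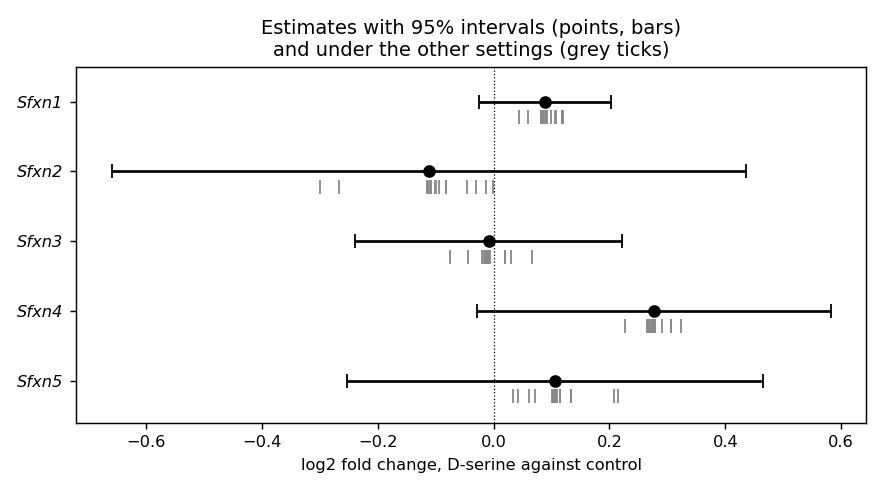
Log2 fold change of each sideroflexin gene, D-serine against control, as the edgeR estimate (point) with its 95% interval (bar) and the estimates under 16 other settings (grey ticks). Each interval includes 0, and it is narrowest for Sfxn1 (-0.025 to 0.20) and widest for Sfxn2 (-0.66 to 0.44).

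The exons of the members shared 0 bases with exons of any other of the 24333 symbols that have a single position in the table. By their longest protein-coding GENCODE transcripts, no pair of members shared an exact run of more than 19 bases, the length found between Sfxn1 and Sfxn2. Of the 50-base stretches of these transcripts, 0% of those of Sfxn1, Sfxn4 and Sfxn5 occurred in the transcripts of another gene, and 0.602% of those of Sfxn2 and 1.95% of those of Sfxn3 did. For Sfxn4 this covers a transcript of 1309 bases, shorter than the 2731 bases over which its counts were taken. The last exon made up 59.98% of the exonic bases of Sfxn3, the smallest share, and 73.8% of those of Sfxn5, the largest.

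Genes that work with the sideroflexins were taken in 7 lists by function. Over all tested genes the median log2 fold change was 0.0053, and 4.84% of genes were called higher and 4.9% lower. Among mitochondrial enzymes that use serine, glycine and folate carbon units, 2 of 10 fell, 0 rose and the median was 0.0069. These were Shmt2, which splits the serine that reaches the matrix, and Aldh1l2, which oxidizes formyl folate. Shmt2 was at 1032, 1049 and 1108 CPM in control and 981, 949 and 947 CPM with D-serine (log2 fold change -0.15, SE 0.040, edgeR adjusted p = 0.0362). Its groups did not overlap. An exon of Ndufa4l2, on the other strand, covers 32 of its bases. Aldh1l2 was at 337, 348 and 331 CPM in control and 264, 317 and 298 CPM with D-serine, also without overlap (log2 fold change -0.21, SE 0.058, adjusted p = 0.0408). Without D-serine replicate 1, its lowest library, the estimate was -0.139, and with the trend on gene length removed it was -0.136. Aldh1l2 was still called in both fits. Of cytosolic serine and folate enzymes, 3 of 9 tested fell, 0 rose and the median was -0.081. Among them were the serine synthesis enzymes Psph (log2 fold change -0.20, SE 0.047, adjusted p = 0.0216 by edgeR) and Psat1 (-0.16, SE 0.039, adjusted p = 0.0279). None of Shmt2, Aldh1l2, Psph and Psat1 was called when any 1 control library or D-serine replicate 3 was left out. The same held with the replicate number as a block in the model. Shmt2 and Psat1 also lost the call when D-serine replicate 2 was left out, and Shmt2, Psat1 and Aldh1l2 did under upper quartile scaling and library totals. When D-serine replicate 1 was left out, 3 genes of each list fell, with medians of -0.026 for the mitochondrial and -0.11 for the cytosolic list. With the length trend removed, 3 mitochondrial and 5 cytosolic genes fell, with medians of -0.025 and -0.115. Over all 16 other settings the mitochondrial median ran from -0.037 to 0.037. The highest adjusted p over all settings was 0.0944 for Psph, 0.127 for Psat1, 0.144 for Shmt2 and 0.154 for Aldh1l2.

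Other mitochondrial carriers of amino acids, folate and glutathione had 1 gene higher and 1 lower of 11 tested, with a median of -0.0049. Slc25a40, a carrier of glutathione, had means of 14.3 ± 0.995 CPM in control and 17.9 ± 0.546 CPM under D-serine (log2 fold change 0.32, SE 0.078, adjusted p = 0.0262 by edgeR). Slc25a12, the aspartate and glutamate exchanger of neural tissue, had means of 126 ± 3.45 and 111 ± 2.27 CPM (a log2 fold change of -0.18, SE 0.044, adjusted p = 0.0244). Neither was called when any 1 control library or D-serine replicate 3 was left out, at adjusted p-values of up to 0.105 and 0.0994. Both also lost the call with the replicate number as a block in the model. The median of the list ran from -0.063 without D-serine replicate 2 to 0.11 without D-serine replicate 1. The import machinery that carries sideroflexins to the inner membrane, the TIM22 complex with its outer membrane receptors, had 0 of 9 tested genes called by edgeR, and 0 by DESeq2 and limma-voom (median -0.011). Of these, 1 had an unadjusted p under 0.05: Timm22, named after its values were seen (log2 fold change 0.17, edgeR adjusted p = 0.0689). Tomm20 and Tomm70a were the receptors with the highest mean CPM, which is not a level per length. Neither Tomm20 (log2 fold change 0.093, SE 0.047, edgeR adjusted p = 0.216) nor Tomm70a (-0.020, SE 0.040, adjusted p = 0.782) passed. With the trend on gene length removed, Tomm20 did (0.14, adjusted p = 0.0280), and this list had 2 genes higher. It had 1 gene higher under upper quartile scaling, with library totals and without D-serine replicate 1. With the length trend removed and the replicate block it also had 1, Tomm20 (0.14, edgeR adjusted p = 0.0286). The median of the list ran from -0.024 to 0.019 over the 16 settings.

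In the list on complex I assembly, the process in which SFXN4 takes part, 3 of 14 tested genes rose (21.4%), 0 fell and the median was 0.15. The estimates were above 0 for 12 of the 14. In the other lists they ran from 2 of 9 above 0 (cytosolic serine and folate enzymes) to 9 of 12 (heme synthesis). All lists were chosen with earlier results of these data known. Nubpl, which delivers iron-sulfur clusters to complex I, was at 7.84, 8.09 and 8.52 CPM in control and 13.6, 11.8 and 12.0 CPM with D-serine (log2 fold change 0.61, SE 0.095, edgeR adjusted p = 0.00588). The groups lay well apart, and this was the largest change among the called genes of the 7 lists. Tmem186, an assembly factor, had means of 17.3 ± 1.05 and 23.7 ± 1.16 CPM (a log2 fold change of 0.46, SE 0.074, adjusted p = 0.00694). Both were called under all 16 other settings, with a highest adjusted p of 0.0434 for Nubpl and 0.0398 for Tmem186. Timmdc1 rose as well (0.26, SE 0.066, adjusted p = 0.0283), but not when control replicate 1, control replicate 2 or D-serine replicate 3 was left out (adjusted p up to 0.108). It was not called with the replicate number as a block in the model either (edgeR adjusted p = 0.0574). The genes of this list were shorter than most, with a median exonic length of 1875 bases against 2834 bases over all tested genes. With the length trend removed, 4 rose and the median was 0.10, and without D-serine replicate 1 there were 3 higher and a median of 0.10.

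Of mitochondrial iron and iron-sulfur cluster genes, 3 of 19 tested rose, 1 fell and the median was -0.025. The cluster assembly genes Hscb (log2 fold change 0.43, SE 0.105, edgeR adjusted p = 0.0254), Bola3 (0.36, SE 0.083, adjusted p = 0.0213) and Nfu1 (0.26, SE 0.071, adjusted p = 0.0375) rose. The matrix chaperone Hspa9 fell, with means of 1666 ± 30.7 and 1515 ± 48.6 CPM (-0.14, SE 0.038, adjusted p = 0.0393). The 3 genes that rose have 530 to 955 exonic bases, and the list had 3 higher and 4 lower with the length trend removed and 3 of each without D-serine replicate 1. Its median ran from -0.052 to 0.013 over the 16 settings. With the length trend removed, the estimates were 0.34 for Hscb, 0.27 for Bola3 and 0.17 for Nfu1, all still called. Without D-serine replicate 1, Hscb was at 0.36 (edgeR adjusted p = 0.0498). Of heme synthesis genes, 1 of 12 rose, 0 fell and the median was 0.069. It was Uros, which closes the porphyrin ring, at 19.4, 18.1 and 17.1 CPM in control and 23.0, 20.1 and 24.5 CPM with D-serine (log2 fold change 0.31, SE 0.085, adjusted p = 0.0384). None of Hscb, Bola3, Nfu1, Hspa9 and Uros was called when control replicate 1 or D-serine replicate 3 was left out. The same held with the replicate number as a block in the model. Hscb, Nfu1, Hspa9 and Uros also lost the call when control replicate 2 was left out, Hscb, Bola3, Hspa9 and Uros when control replicate 3 was, and Hspa9 when D-serine replicate 2 was and under upper quartile scaling and library totals. Their highest adjusted p-values were 0.0961 for Hscb, 0.0902 for Bola3, 0.147 for Nfu1, 0.160 for Hspa9 and 0.141 for Uros.

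**Figure D4:**
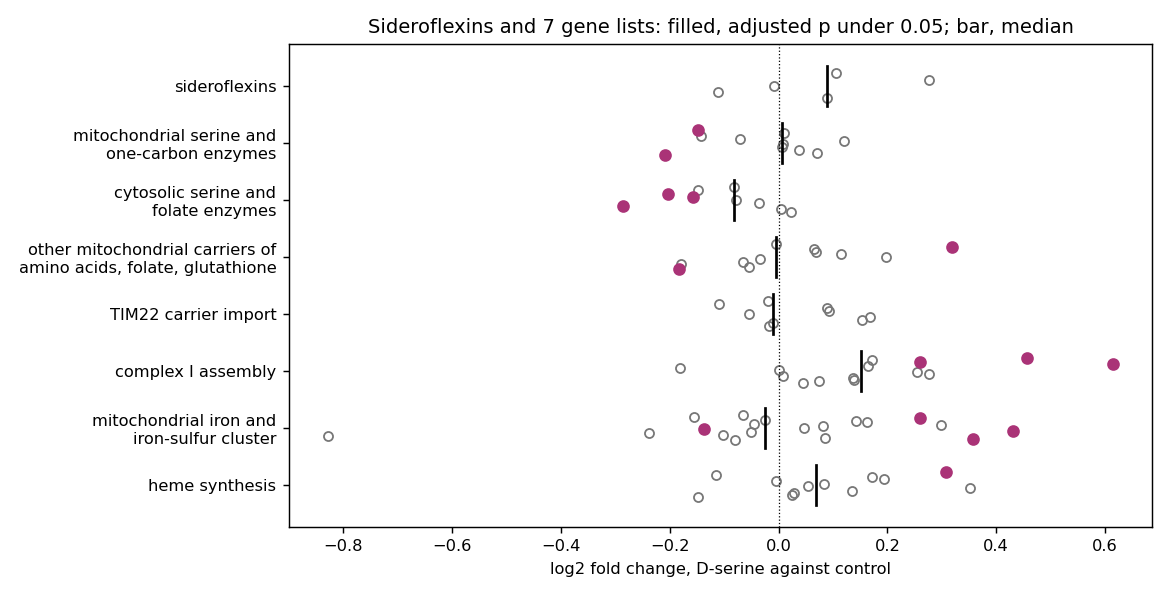
Log2 fold change, D-serine against control, of each tested gene of the sideroflexins and of 7 lists of genes that work with them, with called genes filled, others open and the median as a bar. The 5 sideroflexins are all open, the complex I assembly list has its median at 0.15 with 3 filled points above 0, and the 2 lists of serine and folate enzymes have their filled points below 0.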

How the data were processed

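RNA of 6 Neuro2a libraries (3 control, 3 D-serine) was sequenced as paired ends with a stranded kit, per the series' design text. The values the authors deposited are raw counts in a single table, with exon positions and a summed exonic length for each gene, per the file headers. Of its symbols, 27 had turned into dates and 2 were duplicates. The submitters' processing notes name Trim Galore, HISAT2, featureCounts and the GRCm38 build. Of 23128 symbols with a single position that a RefSeq table of GRCm38 also holds, 313 had the same start there, and 0 of the 5 members did. Gene positions are therefore given as deposited, 1-based, with no build named, and promoters separately in GRCm38.p6. Gene positions and promoter windows printed here cannot be set against each other. Strand setting and multi-mapping are not given in the sources used here.

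Columns named vehicle were assigned to the control samples of the same number. Genes were kept by filterByExpr, normalized with TMM factors and tested with edgeR 4.0.16 in R 4.3.3, without covariates, after a check on simulated data. The SE is the log2 fold change divided by the square root of F, and 95% intervals use the test's degrees of freedom. Alternatives used DESeq2 1.42.0, limma 3.58.1 and the settings of the closing section. Members and lists were chosen with earlier results of these data known. Named were all members and at most 4 called genes per list by smallest p (with none called, the 2 of highest mean CPM). Also named were the 3 tested genes most alike to each member and the nearest tested genes. Some genes that this rule names are not reported here. Called means an adjusted p under 0.05. The trend on length was a natural spline with 5 degrees of freedom, removed per library.

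Replicate numbers were not taken as pairs in the main test, and the labels do not say whether they mark a shared day or batch.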

Additional observations from a re-analysis of the deposited data

How the results depend on the processing

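Of the 5 sideroflexins, 0 were past the threshold under each of the 16 other settings, so the absence of a call did not depend on them. The lowest adjusted p was 0.156, for Sfxn1 with library totals, where its unadjusted p was 0.0401 (0.0424 under upper quartile scaling). Sfxn1, Sfxn4 and Sfxn5 kept estimates above 0 and Sfxn2 below 0 in all 16. Sfxn3 was above 0 in 4: 0.020 under upper quartile scaling, 0.020 with library totals, 0.030 in the fit without control replicate 2 and 0.066 in that without D-serine replicate 1. Over the fits that left out 1 library Sfxn3 ran from -0.075 to 0.066. Tomm70a changed sign under upper quartile scaling (0.0096) and library totals (0.0090). These scalings moved the median of all genes from 0.0053 to 0.035.

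Over all genes, 1302 were called, 647 higher and 655 lower. Lower genes numbered 412 under upper quartile scaling and 412 with library totals, where the higher ones numbered 914 and 944, and 987 without a filter on low counts. Removal of the length trend gave 2043 called genes, 1023 higher and 1020 lower. The replicate block gave 298 genes, 178 higher and 120 lower, and the length trend removed with the block gave 1900. Same-numbered libraries did not deviate together (correlations of -0.069, 0.020 and -0.019), and the numbers were not taken as pairs in the main test. With 3 libraries per group this is a weak check. The fits that left out 1 library gave 68 to 1699 called genes, 47 to 783 higher and 21 to 916 lower. The lowest counts came when control replicate 2 was left out. Leaving out control replicate 1 gave 125, D-serine replicate 3 gave 291 and control replicate 3 gave 453. The cause was not tested. In complex I assembly 2 to 4 genes were higher and 0 lower in all 16 settings. Depth limits Sfxn2, Sfxn4 and Sfxn5 most, where counting error alone gives coefficients of variation of 12.6%, 8.40% and 8.76%, against 1.72% for Sfxn1.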

Other observations

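The nearest tested genes with a single position on either side of each sideroflexin were not called either. Distances are between gene bounds as deposited. Sfxn4 lies between Fam45a, 1048 bases away, and Prdx3, which encodes the mitochondrial peroxiredoxin, 2636 bases away. Their log2 fold changes were 0.12 (SE 0.060, edgeR adjusted p = 0.200) and 0.099 (SE 0.048, adjusted p = 0.194). Prdx3 had means of 95.6 ± 2.43 CPM (control) and 102 ± 4.38 CPM (D-serine). Arl3 lies 280 bases from Sfxn2 on the opposite strand and gave 0.0090, and Wbp1l on the other side gave 0.0076. The neighbours of Sfxn3 were Pdzd7 (-0.17) and Kazald1 (-0.066), those of Sfxn5 Spr (0.018) and Rab11fip5 (0.32, adjusted p = 0.191), and those of Sfxn1 Sptlc1, 694484 bases away (0.048), and Cplx2, 268999 bases away (0.034).

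Genes whose pattern over the 6 libraries was most like a member were found by Pearson's r of log2 CPM among about 9800 tested genes of at least 5 CPM. The highest of so many values are high by choice, so they are a description. Timm21 (0.986), Hn1l (0.984) and Cyld (0.983) were most like Sfxn4, of which Cyld was called higher with D-serine (log2 fold change 0.16, SE 0.048, edgeR adjusted p = 0.0482). Sri (0.977), Akr7a5 (0.974) and Cc2d2a (0.972) were most like Sfxn1, and Agbl5, Arhgap30 and Dpp6 (0.986 to 0.988) most like Sfxn3. Lrrc45, Cdc25c and Rfxank (0.979 to 0.980) were most like Sfxn2, and Exoc6b, Krba1 and Rhbdd3 (0.974 to 0.985) most like Sfxn5. Sfxn2, Sfxn4 and Sfxn5 lay below 5 CPM and so could not be listed. Neither Sfxn1 nor Sfxn3 was among the genes most like another member. Between members r ran from -0.43 for Sfxn1 with Sfxn2 to 0.50 for Sfxn1 with Sfxn4.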
